A study of Rattus norvegicus with 24 samples.

Results

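The genes of the rat major histocompatibility complex (MHC), named RT1 in the rat, were examined in frontal cortex together with the genes whose products load peptides onto MHC molecules. All reference genes of the tables whose symbol starts with RT1- were taken, with B2m, Cd74, Tap1, Tap2, Tapbp and Ciita. These were 37 of the 32883 reference genes, namely 21 class I heavy chains, 10 class II chains and 6 accessory genes. A class II chain was recognised by its symbol (RT1-B, RT1-D, RT1-DM, RT1-DO and RT1-H genes), and every other RT1 gene was counted as class I. The tables place 34 of the 37 on chromosome 20, between positions 154074 and 5476193, while B2m is on chromosome 3, Ciita on chromosome 10 and Cd74 on chromosome 18. Positions are those of the tables, and their genome build is in doubt. The submitters' notes name mRatBN7.2, while clone-based gene names in the tables (AABR07044362.1 and the like) resemble those of an earlier rat assembly, and no genome was used to settle this.

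The rats were adult male Sprague-Dawley animals, an outbred stock, that had inhaled an aerosol of tungsten particles at 0 (Control), 5 (Low) or 80 (High) mg/m3, with 8 rats in each group and 1 library per rat. The cortex was taken 24 h after the exposure. Total RNA was selected for poly(A) and sequenced as stranded libraries, and all values below are the mean read depth over each gene, divided by the sum over all reference genes of the library and multiplied by 1000000 (scaled coverage). This scale is per base, so levels of genes of different length can be compared. The comparisons ask whether inhaled tungsten, at either concentration, altered the abundance of these transcripts in the cortex.

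MHC class I molecules stand on almost all nucleated cells and show peptides from the cell's own proteins to CD8 T cells. Each is a heavy chain bound to beta-2 microglobulin, encoded by B2m. The peptides are cut by the proteasome, carried into the endoplasmic reticulum by the transporter of Tap1 and Tap2, and loaded with the help of tapasin, encoded by Tapbp. Class II molecules are pairs of an alpha and a beta chain on specialised antigen-presenting cells, which in the brain are chiefly microglia and the macrophages of the brain's borders. The invariant chain Cd74 guards their groove, RT1-DM exchanges its remnant for a peptide, and Ciita is the coactivator that switches the set of class II genes on. The MHC is among the most variable regions of vertebrate genomes, in the number of class I genes as well as in their sequence. In healthy cortex transcripts of the heavy chains and class II chains are usually scarce.

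Promoters from RefSeq (build GRCr8, 250 bases before to 50 after the start) were found for 32 of the 37 genes. The core of the Y box (CCAAT) was in 24 of these 32, against 37.5% of all 33469 promoters. The core of the class II X box (AACNGATG) was in 4, against 2.58% of all, and the interferon-stimulated response element (GAAA, any 2 bases, GAAA) was in 7, against 3.92%. The kB site of the class I enhancer (GGGGA directly followed by TTCCC) was in 4 (RT1-A1, RT1-A2, RT1-CE10 and RT1-CE4), against 0.114% of all. Both strands were searched, a match is a run of letters and not a shown binding site, and no pair of these motifs overlaps in the sequences shown. RT1-Da (chr20:4515165-4515464, plus strand) and RT1-Ba (chr20:4576807-4577106, plus strand) are shown as the class II chains that were compared across rats, B2m (chr3:129549080-129549379, plus strand) as the most abundant gene, and RT1-S3 (chr20:2675278-2675577, plus strand), RT1-N2 (chr20:2646080-2646379, plus strand) and RT1-A2 (chr20:4872621-4872920, plus strand) because they separated single rats. Capitals mark matches to the motifs.
RT1-Da: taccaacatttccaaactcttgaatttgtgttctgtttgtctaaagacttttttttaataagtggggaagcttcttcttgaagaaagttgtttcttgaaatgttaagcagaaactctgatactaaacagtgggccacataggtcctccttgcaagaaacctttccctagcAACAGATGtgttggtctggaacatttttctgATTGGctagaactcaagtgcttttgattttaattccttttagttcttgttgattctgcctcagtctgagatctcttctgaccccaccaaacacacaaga
RT1-Ba: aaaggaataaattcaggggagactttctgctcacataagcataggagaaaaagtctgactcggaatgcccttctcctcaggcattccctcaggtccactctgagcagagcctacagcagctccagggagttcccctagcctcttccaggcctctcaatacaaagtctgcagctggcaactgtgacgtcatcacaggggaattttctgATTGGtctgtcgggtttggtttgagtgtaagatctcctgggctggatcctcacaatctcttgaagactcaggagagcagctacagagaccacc
B2m: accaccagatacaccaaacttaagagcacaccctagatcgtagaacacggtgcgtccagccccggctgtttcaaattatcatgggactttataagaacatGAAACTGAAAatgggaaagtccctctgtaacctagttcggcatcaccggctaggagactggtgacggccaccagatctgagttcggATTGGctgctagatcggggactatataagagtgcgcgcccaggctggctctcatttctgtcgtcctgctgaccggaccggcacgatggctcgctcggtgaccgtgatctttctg
RT1-S3: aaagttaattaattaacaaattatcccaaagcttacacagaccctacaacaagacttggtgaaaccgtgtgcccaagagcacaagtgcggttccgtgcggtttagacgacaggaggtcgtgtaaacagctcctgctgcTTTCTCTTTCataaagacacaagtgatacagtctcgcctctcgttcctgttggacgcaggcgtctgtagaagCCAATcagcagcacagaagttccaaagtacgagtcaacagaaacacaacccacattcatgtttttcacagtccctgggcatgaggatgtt
RT1-N2: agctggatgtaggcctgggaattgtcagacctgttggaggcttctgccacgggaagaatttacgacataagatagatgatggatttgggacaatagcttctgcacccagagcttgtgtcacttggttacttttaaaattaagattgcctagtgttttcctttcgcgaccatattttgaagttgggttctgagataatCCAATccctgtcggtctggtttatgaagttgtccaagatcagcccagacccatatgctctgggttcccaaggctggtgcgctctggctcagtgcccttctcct
RT1-A2: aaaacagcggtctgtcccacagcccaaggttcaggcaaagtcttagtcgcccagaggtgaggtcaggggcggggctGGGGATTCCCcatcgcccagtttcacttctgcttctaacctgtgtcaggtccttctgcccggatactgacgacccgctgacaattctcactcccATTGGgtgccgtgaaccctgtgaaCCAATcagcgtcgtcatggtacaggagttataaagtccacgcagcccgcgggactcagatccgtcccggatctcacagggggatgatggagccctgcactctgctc

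Coverage summed over the reference genes lay between 1.64 and 3.07 in units of 1000000 and overlapped between the groups, and the mitochondrial genome took between 21.8% and 33.8% of it. Another measure was lower in Low. The ratio of coverage to FPKM, which gives the bases that StringTie scaled to, had medians of 5.54 (Control), 3.63 (Low) and 6.52 (High) gigabases. Genes listed at 0 numbered 11479 to 12379, 12813 to 14387 and 11323 to 12400. The study's methods cap the reads per sample, but the tables hold no number of reads for a library, so no counting interval can be given. The tables were of different kinds. Those of Low listed 0 assembled loci, whereas those of Control listed between 46334 and 159573 and those of High between 50235 and 64010. Between 6 and 9 of the 37 genes were listed at 0 in a Low table, against 2 to 5 in a Control table and 3 to 6 in a High table. The part of the kind of table in the ratio of coverage to FPKM was not tested. The kind of table, this ratio and the Low exposure cannot be told apart, so every difference between Low and the other groups below carries them all. Markers of cortex were present in every library, with 6 neuronal markers summing to at least 1148 in any rat, and summed microglial markers spanned 275 to 429 (Control), 326 to 396 (Low) and 293 to 460 (High). Markers of lymphocytes summed over 10 genes to between 5.75 and 12.9 in any rat, most of it Cd4 (4.62 to 10.7), which rat macrophages also express, and the other 9 summed to between 0.234 and 2.44.

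Among the reference entries, B2m stood far above every heavy chain. Its scaled coverage was lowest at 194, median 220 and highest at 281 in Control, 192, 222 and 254 in Low, and 178, 209 and 270 in High. The 3 groups overlapped almost entirely. Next came RT1-S3, a non-classical class I heavy chain, with a mean of 24.4 over the 24 rats, then Cd74 at 20.7, RT1-T24-4 at 16.5, RT1-M3-1 at 12.5 and Tapbp at 10.5. RT1-M3-1 is the rat counterpart of H2-M3, which presents peptides that start with formyl-methionine. It was the steadiest heavy chain, at 10.7 to 15.1 (Control), 10.6 to 14.8 (Low) and 10.6 to 14.9 (High).

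Among the reference entries, class I coverage was concentrated in a few genes. RT1-S3 gave 31.3% of the summed class I coverage, RT1-T24-4 gave 21.2% and RT1-M3-1 gave 16%, together 68.5%. The classical class I gene RT1-A2 gave 1.82% and RT1-A1 gave 0.938%. In class II, RT1-DMa gave 35.8% and RT1-DMb 29.8%, so the chains of the peptide exchanger outweighed the peptide-presenting chains RT1-Da (17.6%), RT1-Ba (7.2%) and RT1-Bb (4.91%). The other beta chain of the presenting molecules, RT1-Db1, gave 0.527%. These shares of both classes count the reference entries alone. In Control and High, assembled loci over RT1-Ba on its strand summed to 0.651 to 8.83, where its own entry stood at 0.644 to 3.24. Over RT1-CE5 they summed to 4.42 to 412, where its entry stood at 1.55 to 5.54. Over RT1-A2 they summed to 2.12 to 8.34, where its entry stood at 0.504 to 5.72. Over RT1-S3 they summed to 11.5 to 31.8, near its entry at 11.1 to 30.6. A locus that overlaps several genes is counted for each. For RT1-DMa and RT1-DMb the assembled locus repeated the entry in all 16 of these tables. The part of such loci in the order of the genes was not tested.

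**Figure D1:**
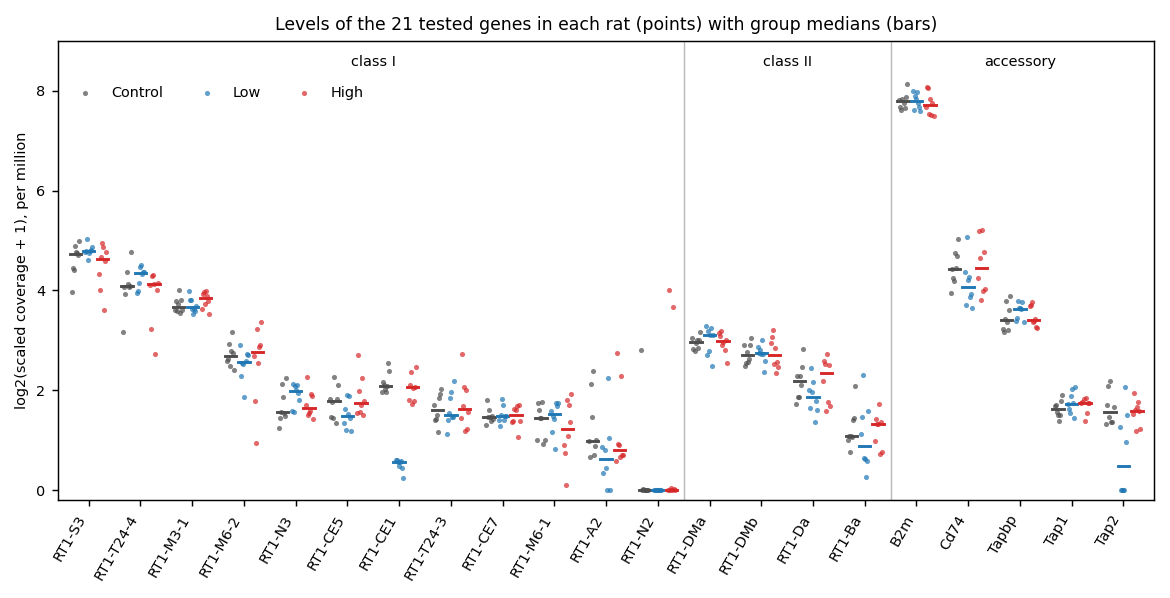
Scaled coverage of the 21 tested genes, drawn as log2(value + 1) for each rat (points) with group medians (bars), for Control, Low and High. B2m lies above all others, RT1-CE1 is lower in all 8 Low rats, and RT1-N2 is near 0 in all but 3 rats.

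Genes entered the tests if they averaged 1 or more over the 24 rats, which 21 did. The remaining 16 did not enter the tests. Among class I these were RT1-M4 (mean 0.979), RT1-A1 (0.731), RT1-CE4 (0.462), RT1-S2 (0.407), RT1-M5 (0.357), RT1-CE10, RT1-T24-1, RT1-CE3 and RT1-M2. RT1-M2 was listed at 0 in all 24 rats. Among class II they were RT1-Bb (0.945), RT1-DOb (0.695), RT1-Db1 (0.101), RT1-DOa, RT1-Db2 and RT1-Ha. RT1-Db2 was listed at 0 in 23 rats and RT1-Ha in 22. Ciita, the class II coactivator, was barely seen, with at most 0.264 in Control, 0.226 in Low and 0.340 in High. Of the 37 genes, 25 were above 0 in every rat.

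No difference between High and Control was found in these genes. By limma on log2(scaled coverage + 1), 0 of the 21 tested genes passed an adjusted p under 0.05, where 0% of all 15644 tested genes passed. At an unadjusted p under 0.05 there were also 0 of the 21, against 2.11% of all genes. Exact Wilcoxon rank-sum tests passed 0 adjusted and 0 unadjusted, where 0 and 887 of all 15644 genes passed. The log2 difference was above 0 for 11 genes and below 0 for 10, with a median of 0.00 beside -0.03 over all tested genes. The median standard error was 0.17, so differences of that size, and of several times that size, could have been missed. The widest difference found was that of RT1-N2, at 0.61 ± 0.55 (SE), which rests on 2 High rats.

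Low was lower than Control in RT1-CE1 and Tap2, 2 of the 21 tested genes (9.52%), against 6.11% of all genes called in either direction and 4.88% lower. The same 2 genes were lower in Low than in High, where 11.7% of all genes were called and 6.39% were lower. The share among these genes is therefore close to the background of each comparison. Over the 21 genes the median log2 difference was -0.00 for Low against Control and -0.03 for Low against High, beside 0.06 and 0.09 over all tested genes. At an unadjusted p under 0.05, 2 of the 21 passed for Low against Control and 3 for Low against High, against 18.4% and 29.1% of all genes.

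RT1-CE1, a class I heavy chain of the RT1-C/E cluster, was at 2.93, 3.27 and 4.84 (lowest, median, highest) in Control. It was at 2.32, 3.18 and 4.53 in High, and at 0.183, 0.478 and 0.527 in Low. No Low rat reached any rat of the other groups. Control and High means were 8.13 and 7.41 times the Low mean. The log2 difference was -1.65 ± 0.11 (SE, limma adjusted p = 1.88e-11) against Control and -1.53 ± 0.11 (limma adjusted p = 8.23e-11) against High. Groups without overlap were found for 1 of the 21 genes in each comparison, where 1.53% and 2.26% of all genes had none. In the tables RT1-CE1 spans positions 4638663 to 4943564 of chromosome 20 on the minus strand, and 18 other genes lie inside this span on the same strand, among them RT1-CE3, RT1-CE4, RT1-CE5 and RT1-CE7, together with Ltb and Ddx39b. Reads of these genes can be split between entries, so the value of RT1-CE1 is uncertain. Each Control and High table also listed 7 to 25 assembled loci over this span on its strand, summing to 167 to 771. The Low tables listed 0. The part of these loci in the value of RT1-CE1 was not tested. RT1-CE4, whose span of 262230 bases covers 16 genes on its strand, was too low to be tested, at 0.440 to 0.655 (Control), 0.266 to 0.439 (Low) and 0.406 to 0.672 (High), so that Low and Control did not overlap while Low and High did. The deposited FPKM and TPM columns gave RT1-CE4 the other direction, since there it passed as higher in Low than in Control and High. On those columns the median of all genes was also higher in Low. RT1-CE7, whose span of 202499 bases covers 11 genes on its strand, overlapped between the groups, at 1.47 to 2.50 (Control), 1.45 to 2.54 (Low) and 1.10 to 2.25 (High). RT1-CE5, of 4290 bases, gave log2 differences of -0.24 ± 0.17 against Control (limma adjusted p = 0.463) and -0.37 ± 0.17 against High (adjusted p = 0.154).

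Tap2 encodes a subunit of the peptide transporter. Its scaled coverage was 1.51, 1.97 and 3.54 in Control and 1.28, 2.02 and 2.86 in High. In Low it was listed at 0 in 4 rats (libraries 58 to 61), and the other 4 stood at 0.951, 1.41, 1.83 and 3.18. The groups overlapped, since these rats reached into the range of Control and High. The log2 difference was -0.92 ± 0.26 (SE, limma adjusted p = 0.0315) against Control and -0.84 ± 0.26 (limma adjusted p = 0.0344) against High. Without libraries 56 to 62, a set drawn from the data in earlier work and not from the labels, only 2 Low rats remain and all 4 listed at 0 are gone. The difference from Control was then -0.41 ± 0.25 and from High -0.33 ± 0.24, neither past the threshold. A listing at 0 was not particular to Tap2, since 154 of the 15644 tested genes (0.984%) were listed at 0 in at least 4 Low rats and above 0 in all 16 others. Tap1, the partner subunit, was at 1.62 to 2.74 (Control), 1.73 to 3.17 (Low) and 1.63 to 2.62 (High), with log2 differences of 0.13 ± 0.10 and 0.06 ± 0.10 for Low against Control and High.

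**Figure D2:**
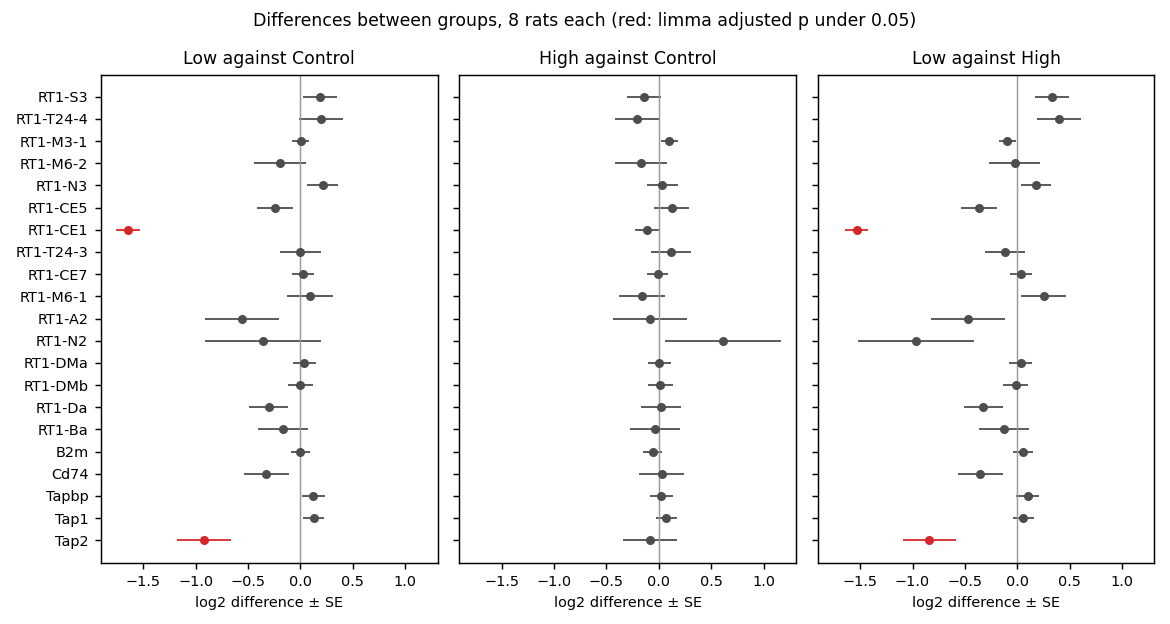
Log2 differences ± SE of the 21 tested genes for the 3 comparisons, 8 rats per group, with genes past an adjusted p of 0.05 in red. RT1-CE1 and Tap2 are lower in Low than in Control and High, and no gene is red between High and Control.

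Among the other accessory genes, B2m gave log2 differences of -0.00 ± 0.09 for Low and -0.06 ± 0.09 for High against Control, and Tapbp gave 0.12 ± 0.11 and 0.02 ± 0.11. No class II gene passed the test, nor did the invariant chain. Cd74 was at 14.4, 20.6 and 31.5 in Control, 11.6, 15.9 and 32.8 in Low and 13.0, 21.1 and 35.9 in High. Its log2 difference was -0.33 ± 0.22 for Low against Control (limma adjusted p = 0.442). RT1-Da, the alpha chain of the rat DR-like molecule, was at 2.31, 3.58 and 6.09 in Control, 1.59, 2.67 and 4.44 in Low and 1.99, 4.11 and 5.64 in High, with a log2 difference of -0.30 ± 0.19 for Low against Control (limma adjusted p = 0.408). All these ranges overlapped. RT1-DMa and RT1-DMb gave 0.04 ± 0.11 and -0.00 ± 0.12.

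Class I and class II were then compared as sums. Summed class I coverage was 78.1 ± 10.7 in Control, 77.1 ± 2.94 in Low and 78.4 ± 7.68 in High (SD, n = 8). Summed class II coverage was 19.4 ± 3.74, 18.5 ± 3.52 and 19.8 ± 4.56. Neither sum differed between groups by more than its spread. On the log2 scale, class I differed by -0.01 for Low and 0.01 for High against Control, where the pooled SD was 0.149 and 0.176. Class II differed by -0.07 and 0.01, where it was 0.261 and 0.304. The ratio of class I to class II was 4.08 ± 0.596 in Control, 4.29 ± 0.818 in Low and 4.17 ± 1.17 in High, so the groups differed by less than the spread between rats, and the lowest ratio in any rat was 3.0. Without RT1-CE1, whose entry overlaps others, the class I sum differed by 0.05 for Low and 0.02 for High against Control.

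Cd74 and the class II chain RT1-Da varied together from rat to rat. After subtraction of group means, they gave Pearson's r = 0.927 and Spearman's rho = 0.920 over 24 rats (permutation p = 1e-05 for both, the smallest that 100000 permutations within groups can give, adjusted over 6 pairs 6e-05). It was 0.954 within Control, 0.897 within Low and 0.949 within High, 0.921 without the 2 rats farthest from the median of Cd74, and 0.942 without libraries 56 to 62. RT1-Da and RT1-Ba, chains of different class II molecules, gave r = 0.592 and rho = 0.586 (permutation p = 0.0019 and 0.00343, adjusted 0.0057 and 0.0103), with 0.838 in Control, 0.464 in Low and 0.724 in High, 0.473 without the 2 farthest rats and 0.533 without libraries 56 to 62.

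Cd74 also followed Aif1, a gene of microglia and macrophages, with r = 0.576 and rho = 0.548 (permutation p = 0.00635 and 0.0133, adjusted 0.00952 and 0.0199), at 0.422, 0.647 and 0.663 within Control, Low and High. The r was 0.548 without the 2 rats farthest from the median of Cd74 and 0.486 without libraries 56 to 62. Aif1 was the only microglial marker set against Cd74. In bulk tissue, fewer cells of a type and less RNA per cell cannot be told apart. B2m and Tapbp gave r = 0.595 and rho = 0.564 (permutation p = 0.00344 and 0.00576, adjusted 0.00688 and 0.0115), at 0.767, 0.211 and 0.688 within the groups, 0.436 without the 2 farthest rats and 0.591 without libraries 56 to 62. B2m and Cx3cr1, a microglial receptor, gave r = 0.270 and rho = 0.486 (permutation p = 0.203 and 0.0244, adjusted 0.244 and 0.0292). This relation turned from 0.906 within High to -0.466 within Low and was 0.0639 without the 2 rats farthest from the median of B2m but 0.471 without libraries 56 to 62, so it did not hold under every choice of rats. Tap1 and Psmb8, a subunit of the immunoproteasome, gave r = 0.0218 and rho = -0.0635 (permutation p = 0.922 and 0.775), adjusted to the same values, 0.0510 without the 2 farthest rats, with -0.617 within Control, 0.0869 within Low and 0.373 within High. The other listed pairs held a gene with a mean below 1 or one whose values fall into separate clusters, and no coefficient is given for them.

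**Figure D3:**
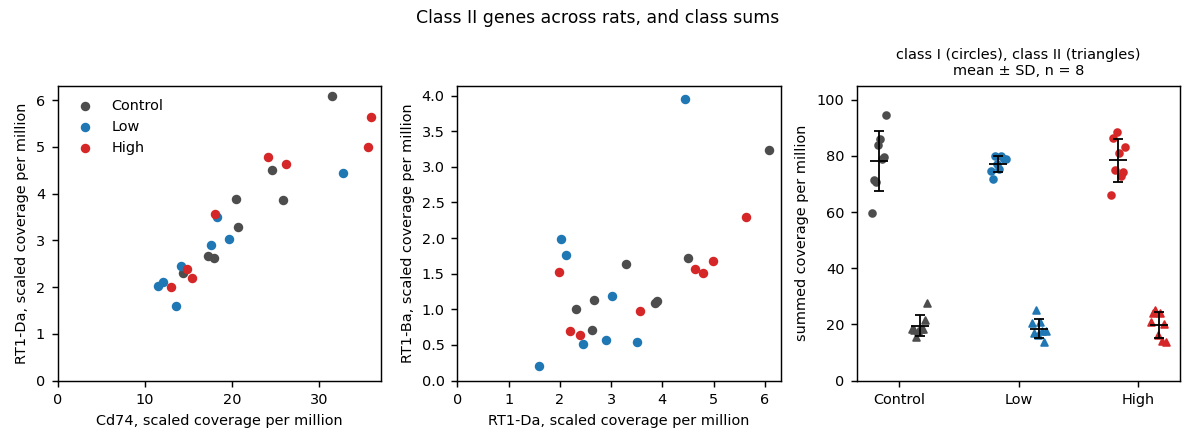
Scaled coverage of RT1-Da against Cd74 and of RT1-Ba against RT1-Da, 1 point per rat coloured by group, and summed class I (circles) and class II (triangles) coverage per rat with mean ± SD. Cd74 and RT1-Da lie along 1 line in all groups, and the class sums of the 3 groups overlap.

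Single rats stood further apart in some of these genes than the groups did. RT1-N2, a non-classical class I gene at positions 3146856 to 3150852 of chromosome 20, stood at 6.02 in library 49 (Control), 15 in library 66 and 11.7 in library 70 (both High). In the other 21 rats it was at most 0.0295, and it was listed at 0 in 16. The same 3 rats had the lowest RT1-S3, at 14.6, 15 and 11.1, where the others ranged from 19.0 to 31.8 with a median of 26.2. They also had the lowest RT1-T24-4, at 7.94, 8.36 and 5.58, where the others ranged from 14.2 to 26.4. RT1-S2 and RT1-N3, which lie between RT1-N2 and RT1-S3, did not separate all 3 of these rats from the others. RT1-S2 stood at 0.319, 2.55 and 1.71 in them, against a median of 0.177 and at most 0.740 in the others. In libraries 66 and 70 it was thus above every other rat, but not in library 49. RT1-N3 stood at 1.38, 3.79 and 2.79, where 1.38 was the lowest of the 24 rats and 3.79 the highest. RT1-N2, RT1-S2, RT1-S3 and RT1-T24-4 each lie inside another annotated gene on the opposite strand, and RT1-N3 overlaps one in part. Reads of a multigene family can also be assigned to the wrong copy, so single values are uncertain.

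The rats were chosen by RT1-N2 after its values were seen, so what follows is a description without a test. Among 20824 genes that reached 0.5 in at least 1 rat, 8 were lower in each of libraries 49, 66 and 70 than in every other rat. Of these 8, 7 lay within the RT1 span of chromosome 20, which holds 0.984% of the genes examined. Beside RT1-T24-4 and RT1-S3 they were AABR07044362.1, AABR07044362.6, AABR07044362.7, LOC103690108 and Dhx16, and the eighth was Bmp15 on chromosome X. A further 5 genes were higher in each of these rats, 1 of them (RT1-N2) within the span. For RT1-N2 the lowest of the 3 rats was 204 times the highest of the others, whereas for the other 4 (Lsm10, Birc5, Pnlip and Sec61b) this ratio was at most 1.04. Genotypes of the rats were not analysed here, and their part in these values was not tested.

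Another set of rats stood apart in RT1-A2 and RT1-Db1. RT1-A2, at positions 5374985 to 5378539 of chromosome 20 and inside the entry of RT1-A1 on the same strand, was at 3.36 and 4.21 in libraries 51 and 53 (Control), 3.73 in library 62 (Low), and 5.72 and 3.86 in libraries 66 and 70 (High). In the other 19 rats it ranged from 0 to 1.75. RT1-Db1, more than 1000000 bases away on the tables' map, separated the same 5 rats, at 0.261 to 0.673 against at most 0.0721. These 5 rats came from all 3 groups. They were chosen after these values were seen, so what follows is a description without a test. Tap2 was also highest in these 5, at 2.39 to 3.54 against at most 2.24 in the others, and so was Psmb8, at 1.73 to 3.0 against at most 1.63. Of 6 genes higher in each of these rats than in every other, 5 lay within the RT1 span (RT1-Db1, RT1-A2, LOC103689996, Tap2 and Psmb8) and the sixth was Slc7a9 on chromosome 1. The span holds 0.984% of the genes examined, and RT1-A2 and RT1-Db1 count among the 5 by the choice of rats. None of the genes examined was lower in all 5. Of the rats with the higher Tap2, 2 were Control, 1 was Low and 2 were High, and the 4 Low rats listed at 0 were not among them.

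**Figure D4:**
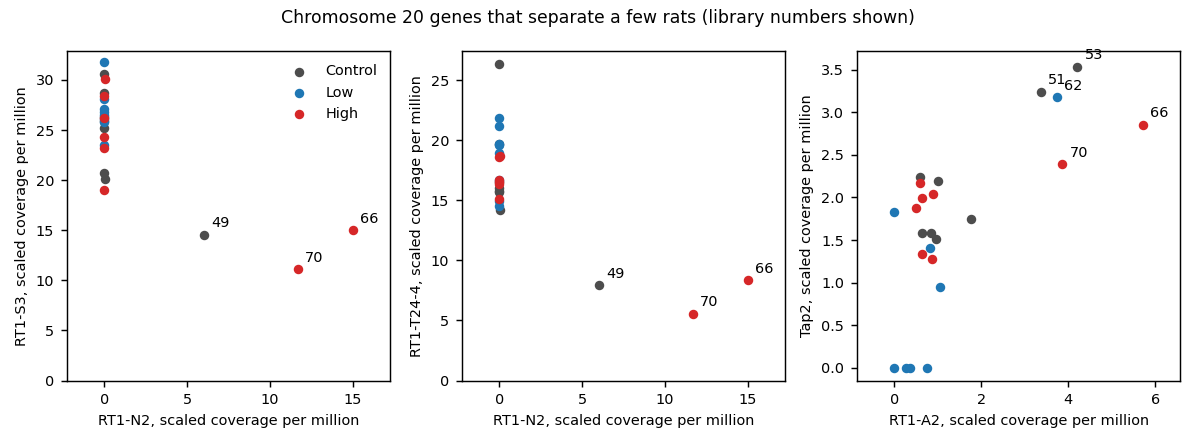
Scaled coverage of RT1-S3 and RT1-T24-4 against RT1-N2, and of Tap2 against RT1-A2, 1 point per rat coloured by group with the library numbers of the rats that stand apart. Libraries 49, 66 and 70 combine high RT1-N2 with the lowest RT1-S3 and RT1-T24-4, and libraries 51, 53, 62, 66 and 70 combine the highest RT1-A2 and Tap2.

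Other heavy chains also varied widely within groups. RT1-M6-1 and RT1-M6-2, neighbours whose entries overlap, were lowest in library 67 (High), at 0.0785 and 0.934, where RT1-M6-2 reached 9.33 in library 72 of the same group. RT1-CE5 was highest in library 66, at 5.54. RT1-S2 was highest in libraries 66 and 70, at 2.55 and 1.71, where the other 22 rats were at or below 0.740. In contrast, the highest value of B2m was 281 and its lowest 178.

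**Figure D5:**
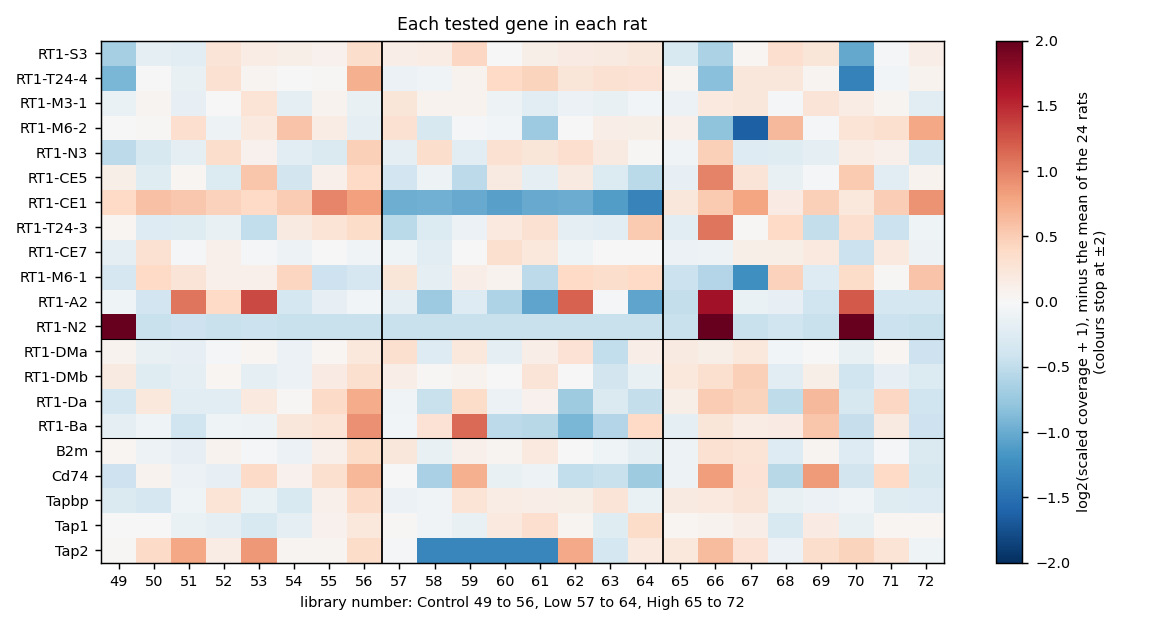
Log2(scaled coverage + 1) of the 21 tested genes in each of the 24 rats, minus the mean of the gene, with colours stopping at 2 in each direction. RT1-CE1 is low in all Low rats, Tap2 is lowest in libraries 58 to 61, and RT1-N2 is high in libraries 49, 66 and 70 only.

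The rest of the pathway was followed in 30 genes of 4 lists, 29 of which entered the tests. Between Low and Control 0 passed (lowest limma adjusted p = 0.0661), where 6.11% of all tested genes passed. Between High and Control 0 passed, where 0% of all tested genes did. Between Low and High 1 of the 29 passed, where 11.7% of all tested genes did. Median log2 differences over the 29 were 0.08, -0.02 and 0.12, beside 0.06, -0.03 and 0.09 over all tested genes. The gene that passed was Rfxap, a subunit of the RFX complex that binds the X box, at 15.7 to 19.5 (Low) and 13.6 to 17.7 (High), with a log2 difference of 0.23 ± 0.06 (limma adjusted p = 0.0226). Its Control range was 13.2 to 16.9, and its difference between Low and Control was 0.20 ± 0.06 (limma adjusted p = 0.0661).

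None of 5 genes of the immunoproteasome and its PA28 activator passed in any comparison. Psme1, the most abundant, averaged 40.6 ± 6.02 in Control, 40.4 ± 3.19 in Low and 40.0 ± 5.52 in High (SD, n = 8), and Psmb9 had the widest difference, 0.15 ± 0.17 for Low against High. None of 5 genes of peptide trimming and class I loading chaperones passed. Calreticulin, Calr, averaged 446 ± 38.6, 448 ± 43.3 and 425 ± 30.8, and calnexin, Canx, gave 0.24 ± 0.08 for Low against High (limma adjusted p = 0.0554). None of 6 genes of class II processing passed, with the protease Ctsb at 396 ± 24.6, 430 ± 45.9 and 392 ± 22.6, and Ctss, which trims the invariant chain, at -0.21 ± 0.12 for Low against Control. Of 14 transcription factors of MHC genes, 13 were tested and Rfxap alone passed. Nfyc, a subunit of the factor that binds CCAAT, was the most abundant at 40.8 ± 3.86, 43.0 ± 2.19 and 40.9 ± 3.22. Creb1 had the widest difference, 0.41 ± 0.28 for Low against High (limma adjusted p = 0.343). Nlrc5, the class I coactivator, averaged 0.243 over the 24 rats and was not tested.

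Markers of cells that could carry class II were followed beside these values. None of 11 tested microglial markers, of 4 tested markers of border macrophages or the 1 tested lymphocyte marker (Cd4) passed in any comparison. Of the other lists (red blood cells, endothelium, meninges and choroid plexus, neurons, cortical projection neurons, astrocytes and oligodendrocytes), 1 gene passed, the endothelial transporter Slco1a4, higher in Low than in High by 0.33 ± 0.10 (log2, limma adjusted p = 0.0235). In that comparison 11.7% of all tested genes passed, against 6.11% for Low against Control and 0% for High against Control. Summed markers of border macrophages ranged from 7.98 to 19.1 (Control), 5.38 to 10.9 (Low) and 5.95 to 15.5 (High), and those of meninges and choroid plexus from 51.3 to 111, 28.1 to 72.9 and 34.0 to 94.1. Both sums had their lowest median in Low, as did Cd74 and RT1-Da, and their part in the class II values was not tested. Of the marker genes found in the tables, Hbe1 was listed at 0 in all rats.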

How the data were processed

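Frontal cortex RNA of 24 rats was analysed, 8 per group as the labels give them. The submitters' processing notes name FastQC, Trimmomatic, TopHat2, StringTie and the build mRatBN7.2, with no versions. The authors deposited 1 table per rat, with signal (coverage, the mean read depth per base), FPKM and TPM per gene. In Control and High the deposited TPM column sums to more than 1000000 and was treated as a score.

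Coverage was summed per gene identifier and scaled to the reference genes. Genes averaging at least 1 were tested with limma 3.58.1 (R 4.3.3, trend, robust) on log2(value + 1), all groups in 1 model, two-sided, with Benjamini-Hochberg adjustment over all 15644 genes and a threshold of 0.05. This scale understates changes of low genes. Limma and the permutation tests (Python 3.11.15, scipy 1.17.1) were tested on simulated data. P-values measure the spread between these rats, which the labels do not tie to separate exposures. Assembled loci were left out, since for 4 of the 37 genes they repeat the gene's own coverage in all 16 Control and High tables, to within 0.1%. For 12 genes they did so in at least 1 of these tables. At others, such as RT1-Ba, they differed from the gene's own coverage and were not added to it.

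The genes, lists and alternatives were chosen with earlier results of these data known. Libraries 56 to 62 are such an earlier, data-derived set. Named are all 37 genes and, of each pathway list, genes that passed, the most abundant and the one with the largest difference. Genes that separate single rats were picked after their values were seen.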

Additional observations from a re-analysis of the deposited data

Results flagged for a closer look

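In each group of 8 rats, the highest and lowest value of the 21 tested genes, of the class sums and of their ratio was compared with the rest by Dixon's test at 0.526. Of 71 sets of values 7 had a rat standing apart, where chance alone would give about 3.55. RT1-N2 in Control was 6.02 in library 49 against at most 0.0139 in the other 7 rats. RT1-A2 in Low was 3.73 in library 62 against 0 to 1.06. RT1-T24-3 in High was 5.67 in library 66 against 1.29 to 3.18. Library 66 was also high in RT1-N2, RT1-A2 and RT1-CE5.

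Library 56 stood above the other Control rats in RT1-Ba, at 3.24 against 0.711 to 1.73, and in B2m, at 281 against 194 to 234. Its table listed 159573 assembled loci, more than any other, and the part of this in its values was not tested. In Low, Cd74 was 32.8 in library 59 against 11.6 to 19.7, and RT1-CE1 was 0.183 in library 64 against 0.367 to 0.527.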

How the results depend on the processing

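The numbers of genes passing were 2 for Low against Control, 0 for High against Control and 2 for Low against High. The 0 for High against Control was found under every alternative run. With a minimum mean of 5, 0 genes passed in the other comparisons, since neither RT1-CE1 nor Tap2 was then tested. Without a filter on low values RT1-CE10 passed as well in Low against High (3 genes). RT1-CE1 alone (1 gene) passed in both with only the groups compared, with libraries 56 to 62 as a covariate, without libraries 56 to 62 (which leaves 2 Low rats) and with exact Wilcoxon rank-sum tests, and in Low against High without libraries 49, 66 and 70, a choice made after seeing the data. Leaving out 1 rat at a time gave 1 to 2 genes in both comparisons, and Tap2 was lost without any 1 of Low libraries 58, 59, 60 and 61, without Control libraries 50, 51 or 53, and against High without libraries 65, 66, 67, 69 or 71. RT1-CE1 passed under all 35 alternatives that could test it, with log2 differences between -2.78 and -1.05 against Control.

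Scales that depend on the kind of table moved more. The median log2 difference of all genes, 0.06 for Low against Control and 0.09 for Low against High, became 0.81 and 0.79 with scaling by all identifiers, to which Low tables add no assembled loci. It became 0.53 and 0.52 with the FPKM column and 0.17 and 0.15 with the TPM column, where the cause was not tested. With all identifiers 14 of 18 tested genes passed in each comparison, 13 of them higher in Low. With FPKM 12 of 15 passed in each, all higher, and with TPM 6 of 24 (4 higher) and 5 of 24 (3 higher). No share of all genes is given for these scales, so the counts are not a result about these genes. Tap2 did not pass with all identifiers, at -0.42 ± 0.25 against Control (limma adjusted p = 0.106) and -0.38 ± 0.25 against High (limma adjusted p = 0.142). Against Control, all identifiers turned B2m to 0.81, Cd74 to 0.45, RT1-T24-3 to 0.50 and RT1-DMb to 0.66, and FPKM turned B2m to 0.51, RT1-T24-3 to 0.52 and RT1-DMb to 0.43. Against High, all identifiers turned RT1-M3-1 to 0.60, RT1-M6-2 to 0.55, RT1-T24-3 to 0.37 and RT1-DMb to 0.60, and FPKM turned RT1-M3-1 to 0.55, RT1-T24-3 to 0.40 and RT1-DMb to 0.36. B2m, RT1-DMb and the others thus lie near or below the median of all genes. The class I sum for Low moved to 0.81, 0.77 and 0.35 against Control and to 0.74, 0.68 and 0.26 against High with all identifiers, FPKM and TPM. The class II sum moved to 0.75 and 0.52 against Control and to 0.68 and 0.45 against High with all identifiers and FPKM. Without scaling, the class I sum was 0.20 for High against Control and -0.24 for Low against High, where depth is not removed.

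No paired analysis was possible because the groups share no replicate numbers. The tables hold no reads per library, Low tables list more genes at 0, and genes of multigene families or overlapping entries can share reads. Which of these bear on RT1-CE1 and Tap2 was not tested.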
